A study of Mus musculus with 2 samples.

Results

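The genes described here are 10 receptors of natural killer (NK) cells, chosen by symbol among the 31053 genes of the count table: Klra4, Klra7, Klra8, Klrb1c, Klrc1, Klrc2, Klrd1, Klre1, Klrk1 and Ncr1. All 10 were found. The other 9 beside Ncr1 belong to the killer lectin-like receptors. Ncr1, which encodes NKp46, is an immunoglobulin-like receptor and was kept in the list although it is not lectin-like. The data were single-cell RNA profiles of live CD45+ cells (7-AAD negative leucocytes) sorted from B16 melanoma tumours of mice aged 8 weeks. WT mice were Mettl3 fl/fl Lyz2 +/+ and KO mice were Mettl3 fl/fl Lyz2 cre/+, so both carried floxed Mettl3, and Cre was driven by a gene of myeloid cells, not of NK or T cells. There was 1 library per genotype, each of pooled cells from several mice, so no test between genotypes could be made.

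NK cells read their targets through a balance of activating and inhibitory receptors. Many of the inhibitory ones bind MHC class I molecules on healthy cells, and some of the activating ones bind stress-induced or viral ligands. The activating ones signal through adaptor proteins with activation motifs. Subsets of CD8 T cells carry some of the same receptors. Each Ly49 gene (the Klra genes) is expressed by a fraction of NK cells, so that single cells differ in the set they carry.

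Sequencing gave 5895 barcodes with 45963969 unique molecular identifiers (UMIs) for the library labelled WT and 8446 barcodes with 54052317 UMIs for the library labelled KO. The same sequence occurred as a barcode of both in 13 cases. After filtering, 5405 and 7625 cells remained, with medians of 4137 and 3563 UMIs. Levels are UMIs per 1000000 UMIs of a class (CPM), and UMI counts from the 3' end do not grow with transcript length. Every interval is a 95% interval, exact Poisson for CPM, exact conditional for ratios and Clopper-Pearson for shares, and covers counting error only. Mettl3 was not lower in the library labelled KO (8.53 and 10.4 CPM in macrophage-like cells labelled WT and KO), and whether the 3' counts can show the deletion at all is not given in the sources used here. Lyz2, of which KO mice have 1 intact allele, was 5617 and 2538 CPM in the same cells, whose largest cluster was not the same in the 2 libraries. The libraries are therefore named by their labels throughout.

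The 9 lectin-like members lie together on chromosome 6 of GRCm38, in the NK gene complex, between positions 128778485 and 130233322 (1.45 megabases), in the GENCODE M21 annotation. From the proximal end they run Klrb1c, Klre1, Klrd1, Klrk1, Klrc2, Klrc1, Klra4, Klra8 and Klra7. Klre1 and Klrd1 are on the plus strand and the other 7 on the minus strand. Ncr1 is on chromosome 7, from 4337724 to 4345164. Klra4 encodes Ly49D and Klra8 encodes Ly49H, both activating, whereas Klra7 encodes the inhibitory Ly49G. Inhibitory Ly49 receptors carry a tyrosine-based motif near the start of the protein, inside the cell. The first 30 coding bases of the 3 genes, each within 1 exon on the minus strand, are shown because that motif is encoded near the start of the gene. Capitals mark the 7 positions at which the 3 sequences differ.
Klra7 (inhibitory; chr6:130231588-130231617): atgaGtgaGcaggaGgTcacttAcTcaAct
Klra8 (activating; chr6:130128131-130128160): atgaGtgaGcaggaGgTcacttTcCcaAct
Klra4 (activating; chr6:130065273-130065302): atgaCtgaAcaggaAgAcacttTcTcaGct

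Counted from the A of the start codon, the change A23T in codon 8 is carried by both activating genes relative to Klra7. Klra8 differs from Klra7 by that change and by T25C, and Klra4 by A23T and 5 others. Genes this alike can share reads. Of the 90-base windows in the last 400 bases of each annotated coding transcript, 30.6% of those of Klrc1 occurred unchanged in Klrc2 and 9.19% of those of Klrc2 in Klrc1. The share was 8.09% for Klra7 (with the pseudogene Klra13-ps), 7.07% for Klrb1c (with Klrb1a and Gm44511) and 0 for the other 6 members. Counts of Klrc1 and Klrc2 are thus uncertain to that extent, since such reads fit either gene, and the read length is not given in the sources used here.

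Cells were put into classes by clustering without these 10 genes or other killer-receptor genes, so the levels below did not shape the classes. NK-like cells (89 labelled WT and 189 labelled KO) had UMIs of all 10 NK markers of the list in each library (8937 and 10060 CPM summed), none of which is a member. CD8 T-like cells also had UMIs of all 10 (4281 and 4009 CPM summed). The 9 T cell markers summed to 1143 and 890.3 CPM in NK-like cells, with UMIs of 6 and 8 of them, beside 4210 and 3762 CPM in CD8 T-like cells. Of these markers, Cd3e, Cd5 and Cd6 were at 0 in NK-like cells labelled WT, and Cd5 was at 0 in those labelled KO. NK-like clusters were named by high NK markers and low Cd3 genes, so these values follow in part from the naming and do not test it. The members took 4458 CPM of WT-labelled NK-like cells (4159 to 4772) and 4479 CPM of KO-labelled ones (4264 to 4703). CD8 T-like cells (315 and 368) held 802 and 851 CPM, T-like cells assigned to neither CD4 nor CD8 (143 and 200) 898 and 1009 CPM, and CD4 T-like cells (132 and 232) 269 and 229 CPM. In B-like cells, which should lack these receptors, the sum was 58.6 CPM (17 UMIs, WT-labelled) and 5.80 CPM (1 UMI, KO-labelled). NK-like cells were 2.13% of the kept cells and held 19.5% of the members' UMIs. Clusters without a name held 12.1% and a mixed-lineage cluster 6.98%.

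**Figure D1:**
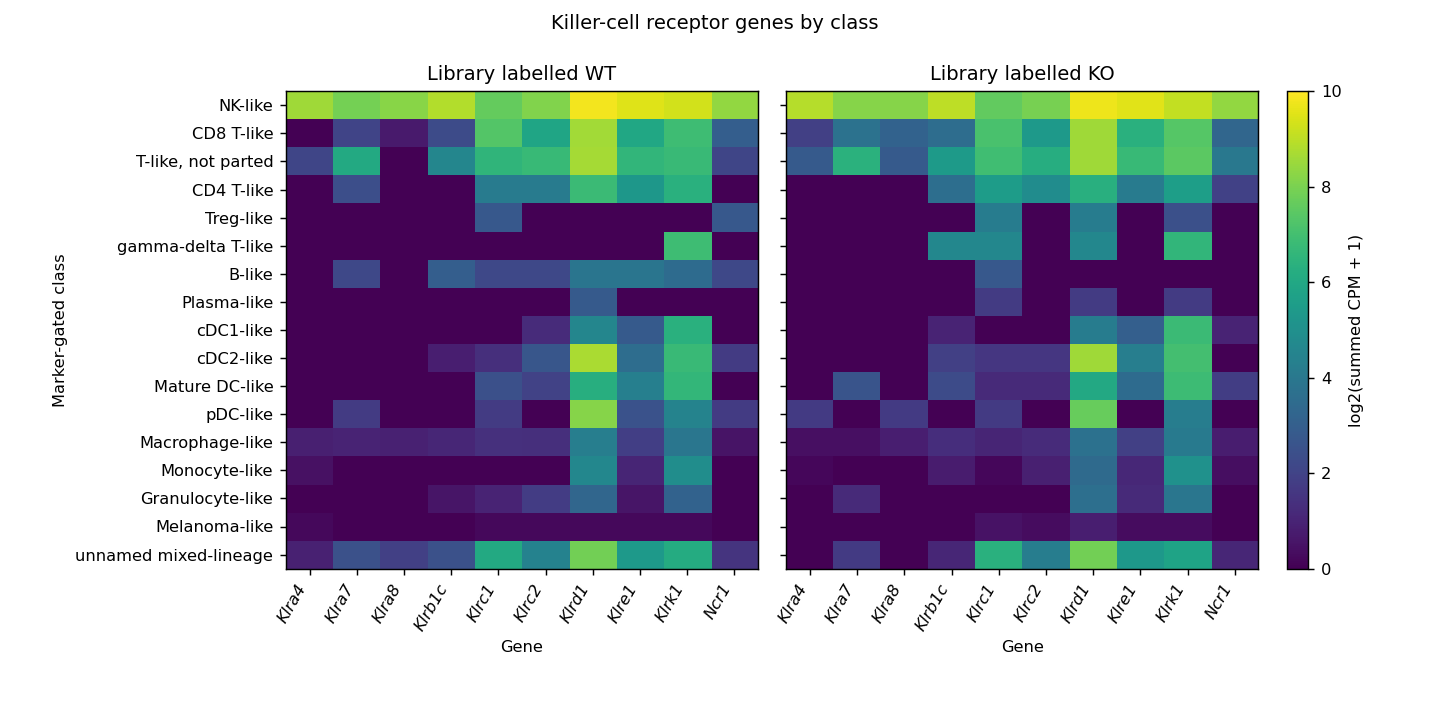
Colour gives log2(summed CPM + 1) of each receptor gene (columns) in each marker-gated class (rows), with 1 panel per library; not parted means assigned to neither CD4 nor CD8. NK-like cells are bright for all 10 genes, CD8 T-like cells and T-like cells not parted for Klrc1, Klrc2, Klrd1, Klre1 and Klrk1, the latter also for Klra7, and cDC2-like cells for Klrd1 and Klrk1.

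The members differed in how far their UMIs were gathered in NK-like cells. Of the UMIs in kept cells of both libraries, NK-like cells held 82.1% for Klra4, 70.8% for Klra8, 66.8% for Ncr1, 61.8% for Klrb1c and 49.3% for Klra7. Klrb1c encodes NK1.1, the antigen by which NK cells of C57BL/6 mice are recognised. The share was 36.5% for Klre1, still the largest of any class, 26.1% for Klrc2, 10.4% for Klrc1, 10.3% for Klrk1 and 9.03% for Klrd1. Klrc1 had 49.6% of its UMIs in CD8 T-like cells, and Klrd1 had 24.8% there and 21.1% in cDC2-like cells. These shares grow with the number and depth of a class's cells, which is why macrophage-like cells held 15.0% of Klrk1 at only 14.3 and 15.9 CPM.

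Among the Ly49 members in NK-like cells, Klra4 stood at 377 CPM (294 to 477) labelled WT and 478 CPM (410 to 555) labelled KO. Klra7 stood at 243 CPM and 288 CPM, and Klra8 at 296.5 CPM and 290.3 CPM. The intervals of the 2 libraries overlapped for each of the 3. Klrd1 encodes CD94, the partner without which the NKG2 proteins of Klrc1 and Klrc2 do not reach the surface as receptors for Qa-1. It was detected at 906 CPM (774 to 1053) labelled WT and 852 CPM (759 to 952) labelled KO. Klrc1, the inhibitory NKG2A, was at 199 and 191 CPM and Klrc2, the activating NKG2C, at 275 and 249 CPM. Klre1, whose product pairs with those of Klri1 and Klri2, was at 733 and 741 CPM. Klrk1 encodes NKG2D, the receptor of stress-induced MHC class I-like ligands, and was at 641.5 and 542 CPM. Klrb1c was at 458 and 517 CPM, and Ncr1, an activating receptor, at 329 and 332 CPM. In both libraries Klrd1, Klre1 and Klrk1 were the highest of the 10 and Klrc1 the lowest. Neighbours in that order with overlapping intervals, such as Klrd1 and Klre1 labelled WT, cannot be ordered from these counts.

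**Figure D2:**
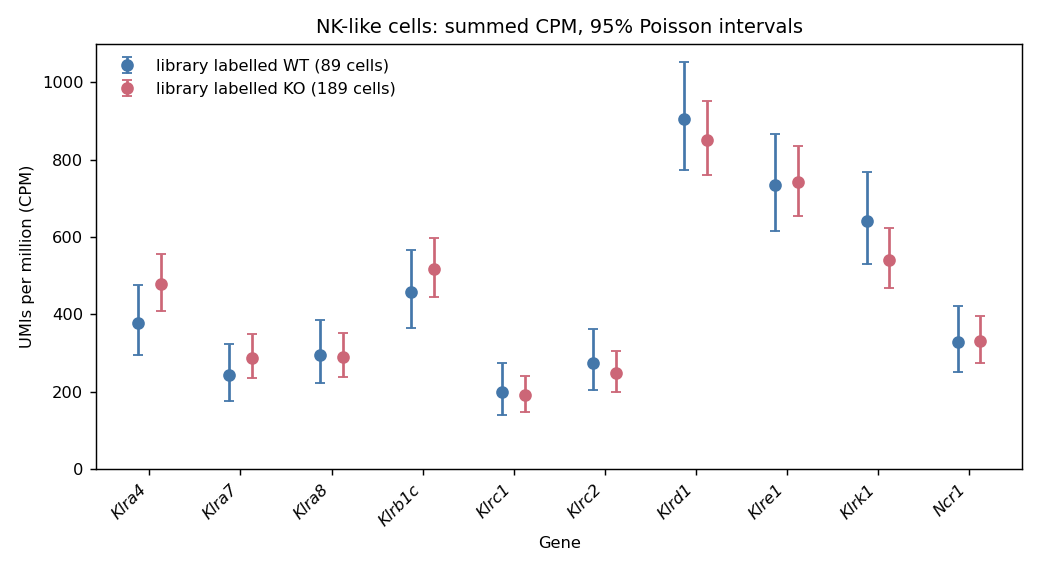
Points are the summed CPM of each receptor gene in NK-like cells of each library and bars are 95% Poisson intervals, on a linear axis from 0. For each gene the interval of the library labelled WT overlaps that of the library labelled KO.

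The comparison of KO with WT asks whether receptors of NK cells differ when Mettl3 is removed from myeloid cells. None of the 10 members reached a 2-fold difference in NK-like cells. Of 4002 genes with at least 20 UMIs over both libraries, 4.8% were past 2-fold higher in the library labelled KO and 2.55% past 2-fold lower, on the scale of log2(CPM + 1). The members' sum had a log2 KO/WT of 0.0069 (-0.11 to 0.13). The largest positive ratio was that of Klra4, 0.34 (-0.07 to 0.76), and the largest negative ratio that of Klrk1, -0.24 (-0.58 to 0.10). The median over the 10 was -0.0086, beside 0.0024 over all 4002 genes, with 5 members above 0 and 5 below. Every member's interval included 0. The widest, that of Klrc1, ran from -0.66 to 0.55, and differences within it were not detectable at this depth. Lyz2, which NK cells should lack, was at 178 CPM in NK-like cells labelled WT and 55.3 CPM in those labelled KO, and its part in these ratios was not tested.

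At least 1 member had a UMI in each of the 89 WT-labelled NK-like cells and in 98.9% of the KO-labelled ones. The median cell held 5 and 4 of the 10 members, and 3 and 3 when each cell was thinned to 1000 UMIs, which left out 5 and 16 shallower cells. Median depths were 1919 and 1586 UMIs. Klrd1 was found in 73.0% and 66.1% of cells (57.1% and 50.3% thinned), Klre1 in 69.7% and 73.5% (46.4% and 51.4% thinned), and Ncr1 in 46.1% and 40.7% (31.0% and 29.5% thinned). After thinning, Klrc1 was in the fewest cells, 15.5% and 18.5%, and Klrc2 in 20.2% and 20.8%. As counted in the library labelled WT, Klra8 was in fewer cells (23 of 89) than Klrc1 (26 of 89). Among the Ly49 members, after thinning, Klra4 was in 27.4% and 28.3%, Klra7 in 23.8% and 24.9% and Klra8 in 20.2% and 20.8% of NK-like cells. At least 1 of the 3 was seen in 57.3% of cells labelled WT (46.4 to 67.7) and 63.5% of cells labelled KO (56.2 to 70.4) as counted, and in 48.8% and 53.8% after thinning. All 3 together were seen in 2 of 84 and 4 of 173 thinned cells. The intervals of the libraries overlapped in each of these shares.

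**Figure D3:**
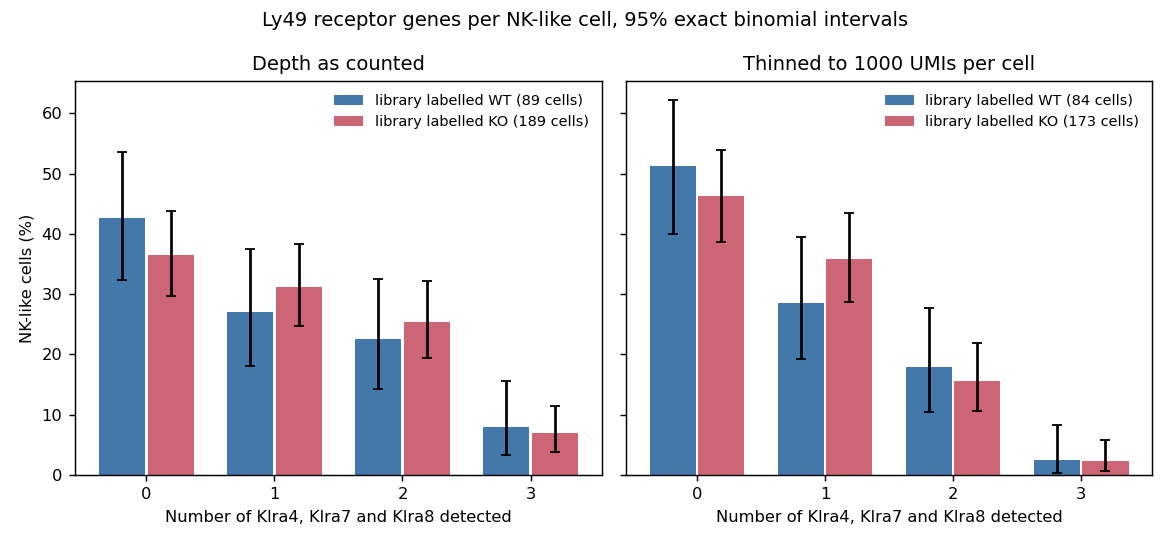
Bars give the percentage of NK-like cells in which 0, 1, 2 or 3 of Klra4, Klra7 and Klra8 had a UMI, as counted (left) and thinned to 1000 UMIs per cell (right), with 95% Clopper-Pearson intervals. After thinning, 51.2% of cells labelled WT and 46.2% of cells labelled KO had none of the 3.

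Within NK-like cells, 5 of the other members were counted separately in cells with and without a UMI of a Ly49 member, and the share with Klrc1 was lower where a Ly49 member was seen. After thinning it had a UMI in 2 of 41 Ly49-positive (4.88%, 0.596 to 16.5) and 11 of 43 Ly49-negative cells (25.6%, 13.5 to 41.2) labelled WT. In the library labelled KO it had a UMI in 11 of 93 (11.8%, 6.06 to 20.2) and 21 of 80 cells (26.2%, 17.0 to 37.3). As counted the shares were 21.6% and 39.5% in the library labelled WT and 15.8% and 42.0% in the library labelled KO. The direction was the same in each library and at each depth. The intervals overlapped except in the KO-labelled cells as counted (9.81 to 23.6 against 30.2 to 54.5), and no test across mice was possible. Klrc2, its neighbour and near copy, had the opposite order, 26.8% of Ly49-positive and 14.0% of Ly49-negative thinned cells (WT-labelled) and 22.6% and 18.8% (KO-labelled), with overlapping intervals. Klrk1 was seen in 43.9% and 37.2% of these cells labelled WT and 37.6% and 37.5% of those labelled KO. Ncr1 was seen in 24.4% and 37.2% of the thinned cells labelled WT and 30.1% and 28.8% of those labelled KO, so its order differed between the libraries. Klrd1 was seen in 63.4% and 51.2%, and 55.9% and 43.8%, again with overlapping intervals. Klrc1 and Klrc2 together were seen in 1 of 84 and 8 of 173 thinned cells. As counted, Klrd1 accompanied Klrc1 or Klrc2 in 39 of 89 cells labelled WT and 62 of 189 labelled KO. Another 12 and 33 cells had a UMI of Klrc1 or Klrc2 and none of Klrd1. After thinning, these counts were 17 and 12 of 84 cells labelled WT, and 27 and 33 of 173 labelled KO. Klrd1 had a UMI in 65 of the 89 and 125 of the 189 cells as counted. Whether it accompanied Klrc1 or Klrc2 beyond that share was not tested. At 1586 to 1919 UMIs per cell a missing UMI does not show a missing transcript.

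In CD8 T-like cells the most abundant members were Klrd1, Klrc1, Klrk1, Klre1 and Klrc2. Klrd1 was at 391 CPM labelled WT and 385 CPM labelled KO, Klrc1 at 159 and 141 CPM, Klrk1 at 118 and 162 CPM, Klre1 at 61.4 and 79.5 CPM and Klrc2 at 58.2 and 41.4 CPM. Klra4 had no UMI among 1563772 UMIs labelled WT, which by the floor of 3 counts allows up to 1.92 CPM, and 5 UMIs labelled KO. After thinning, Klrd1 was found in 27.0% and 39.2% of cells, Klrc1 in 15.6% and 15.5% and Klrk1 in 13.5% and 15.5%, and Klrd1 was found in 1 of 119 WT-labelled and 0 of 67 KO-labelled B-like cells. B-like cells had medians of 1461 and 1126 UMIs and CD8 T-like cells 2461 and 1917. The thinned shares of Klrd1 did not overlap between libraries (22.0 to 32.5 and 33.7 to 44.9) although its CPM did, so no order was read from them. On the CPM + 1 scale the log2 KO/WT of Klrd1 went from -0.022 to 0.56 after thinning. Across the class, 8 members passed the floor of 20 UMIs, and 2 of them were past 2-fold higher in the library labelled KO (1.22% of 8759 genes) and 0 past 2-fold lower (0.948%). These were Klra7, with 5 and 23 UMIs in 4 and 13 cells, and Klrb1c, with 6 and 20 UMIs in 6 and 12 cells. Both rest on few cells. With cells gated singly, their log2 on the CPM + 1 scale fell from 1.71 to 0.87 for Klra7 and from 1.32 to 0.68 for Klrb1c, whereas per-cell means gave 3.26 and 0.85. After thinning neither had the 20 UMIs needed, with 3.04 for Klra7 (1 and 11 UMIs) and 0.37 for Klrb1c. The NK gene Gzma was past 2-fold higher in the same cells (95 and 330 UMIs in 25 and 55 cells, log2 1.58, 1.25 to 1.93), as was Klrb1f (4 and 19 UMIs), and their part in these calls was not tested. Gzma was 1 of 7 effector genes over the floor, 3 of them below 0. Klrb1f was 1 of 4 other killer-receptor genes over it, 2 of them below 0. The 10 NK markers together were at 4281 and 4009 CPM in the class. Lyz2 was at 129.8 and 40.3 CPM there, and its part was not tested. Klrk1 had a log2 ratio of 0.46 (0.19 to 0.73) and Klrc2 of -0.49 (-0.95 to -0.03), both within 2-fold. The direction of Klrc2 turned after thinning (0.040 on the CPM + 1 scale).

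The class joins 3 clusters. L1 (140 and 189 cells) was led by Gzmk and Ccl5, L4 (124 and 102 cells) by Gzmf and Gzmc, and L6 (51 and 77 cells) by histone and cell cycle genes, each against the other T and NK cells. Against all cells L6 was led by Rgs16, Nrgn and Gzmb. In that comparison Prf1 or Xcl1 of the NK list stood among the leading genes of L4 and L6 and neither Cd8 gene did, so the libraries were also compared cluster by cluster. In L1 the members summed to 1152 CPM labelled WT and 1304 CPM labelled KO, and none of the 5 members over the floor was past 2-fold (background 3.84% higher and 2.08% lower). Klra7 had 1 UMI labelled WT there and 14 UMIs in 6 cells labelled KO. In L4 the sums were 747 and 919.8 CPM, a log2 ratio of 0.30 (0.13 to 0.47). Klre1 was the member of L4 past 2-fold (1 of 5, background 2.2% higher and 2.58% lower). It had 32 UMIs in 21 cells labelled WT and 66 UMIs in 32 cells labelled KO, or 41.6 and 101 CPM, with log2 KO/WT 1.29 (0.66 to 1.94). After thinning it was in 4.42% (1.45 to 10.02) and 8.79% (3.87 to 16.6) of cells, with overlapping intervals, and values within single clusters were not recomputed under the alternatives. In L4 Tyrobp and Fcer1g (2 of 10 adaptor genes) were past 2-fold lower and Lyz2 went from 168.9 to 30.7 CPM, and their part was not tested. Klrk1 in L4 was at 83.1 and 138 CPM, with a ratio of 0.73 (0.25 to 1.22). In L6 the sums were 715 and 661 CPM and none of 5 members was past 2-fold (background 3.18% higher and 1.72% lower). Klre1 there was at 68.6 and 51.9 CPM, with an interval of -1.06 to 0.26. All 9 UMIs of Klra8 in L6 labelled KO came from 1 cell.

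**Figure D4:**
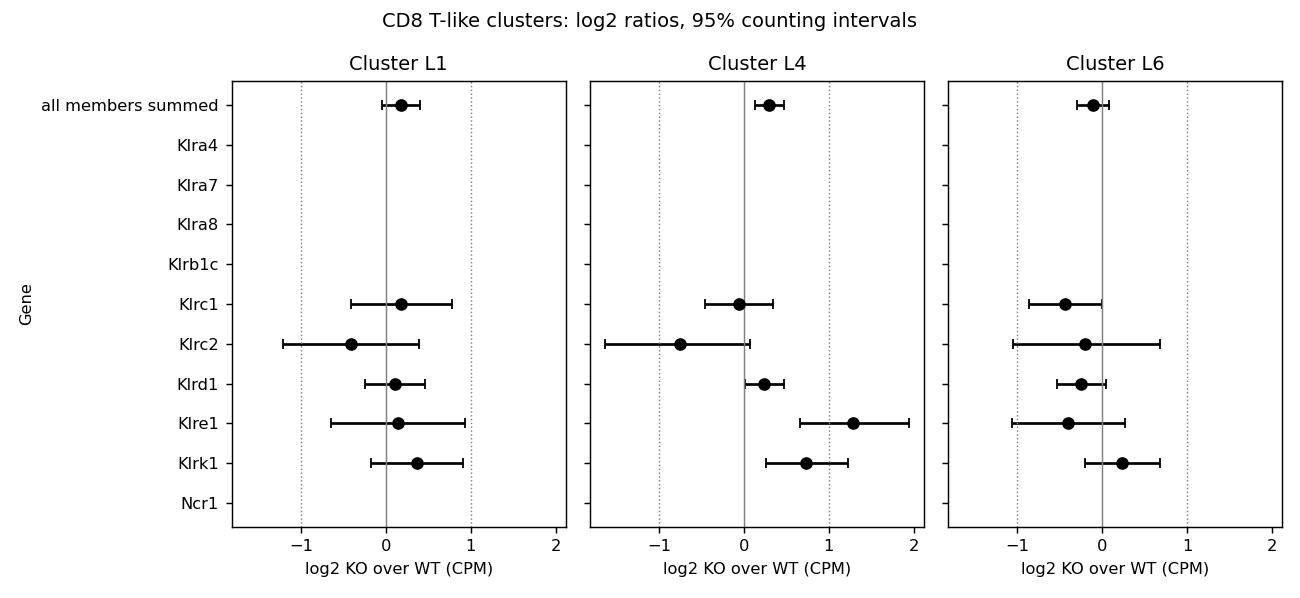
Points are log2 ratios of CPM, KO over WT, of members with at least 20 UMIs in each CD8 T-like cluster and of their sum, bars are 95% intervals of counting error, and dotted lines mark 2-fold. Klre1 of cluster L4 lies beyond 2-fold at 1.29, and the other points lie within it.

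The members' summed CPM was lower in CD4 T-like than in CD8 T-like cells, and 3 members passed the floor there. Klrc1 had 4 and 16 UMIs and was past 2-fold higher in the library labelled KO (1 of 3, background 3.85% higher and 2.45% lower), with an interval of -0.24 to 3.43 that includes 0. Its 20 UMIs just met the floor, and under 6 alternatives it had fewer and could not be called, with log2 values on the CPM + 1 scale from 0.21 to 1.70. Klrd1 was at 111 and 78.3 CPM, an order that turned with a stricter cell filter (log2 0.80), at resolution 2 (0.31), with single-cell gates (0.27) and with members in the clustering (0.69). Klrk1 was at 81.1 and 47.6 CPM. The Ly49 members had 1 UMI in all there. Treg-like cells (32 and 33) held 11.6 and 39.4 CPM over the 10 members. Gamma-delta T-like cells (19 and 22) held 118 and 167 CPM, of which Klrk1 gave 118 and 95.4 CPM from 5 and 4 UMIs. Cluster L2, of the T-like cells assigned to neither, had Tcf7, Lef1 and Ccr7 among its leading genes. Trdc of the gamma-delta list and Txk of the NK list also stood among those against all cells. In L2 Klra7 had a UMI in 13 of 130 cells labelled WT and 19 of 168 labelled KO, at 72.8 and 98.2 CPM. Klra4 and Klra8 had at most 7.27 CPM there. Klra7 was the most abundant Ly49 member in these cells.

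Among myeloid classes Klrd1 stood out in the cDC2-like and pDC-like classes of dendritic cells. In cDC2-like cells (196 and 261), the conventional dendritic cells that present antigen to CD4 T cells, it reached 429 CPM labelled WT (394 to 466) and 377 CPM labelled KO (347 to 410), about the level of CD8 T-like cells. It was found in 63.3% and 60.2% of them, and in 30.1% and 31.6% after thinning, against 2 of 133 WT-labelled and 0 of 97 KO-labelled thinned cDC1-like cells. In the same cDC2-like cells Klre1 was at 10.9 and 18.2 CPM, Klrc2 at 5.46 and 2.02 CPM and Klrc1 at 1.56 and 2.02 CPM, Klra4, Klra7 and Klra8 had no UMI, and the 10 NK markers together were at 39.8 and 36.3 CPM with Gzma and Serpinb9b at 0 in each library. Plasmacytoid (pDC-like) cells (93 and 110) held Klrd1 at 292 and 203 CPM, a log2 ratio of -0.53 (-0.93 to -0.13), in 19.6% and 14.5% of thinned cells, with no UMI of Klrb1c. Klrk1 was at 109 and 128 CPM in cDC2-like, 79.4 and 111 CPM in cDC1-like, 97.3 and 116 CPM in mature DC-like and 28.8 and 32.4 CPM in monocyte-like cells. In melanoma-like cells the 10 members summed to 0.996 and 1.96 CPM.

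**Figure D5:**
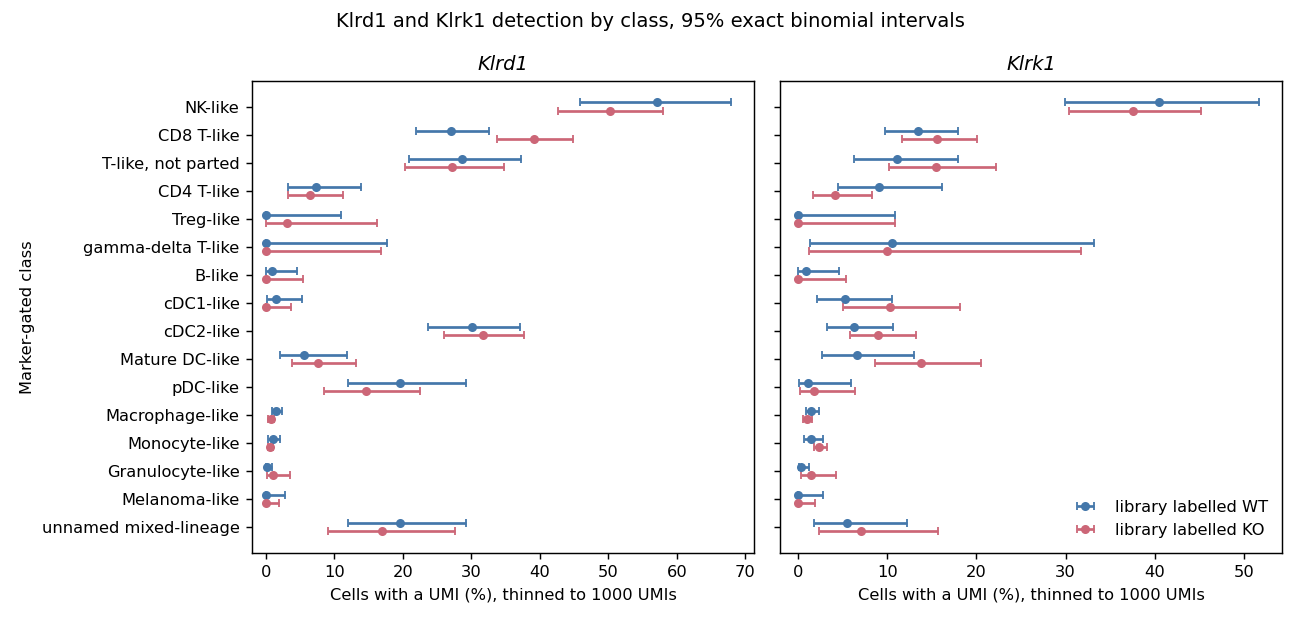
Points are the percentage of cells with a UMI of Klrd1 (left) or Klrk1 (right) in each class after thinning to 1000 UMIs, with 95% Clopper-Pearson intervals, for each library. cDC2-like cells reach 30.1% and 31.6% for Klrd1, near CD8 T-like cells, and cDC1-like cells lie near 0.

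The partners of these receptors were read from fixed lists. Tyrobp, which encodes the adaptor DAP12 of Ly49D and Ly49H, was at 1509 and 1911 CPM in NK-like cells and 79.9 and 47.5 CPM in CD8 T-like cells. Hcst, which encodes DAP10 of NKG2D, was at 1116 and 1037 CPM in NK-like and 662.5 and 507 CPM in CD8 T-like cells. Of 12 adaptor and signalling genes, 11 passed the floor in NK-like cells and 2 were past 2-fold higher (background 4.8% higher and 2.55% lower, also for the counts of the lists that follow), Zap70 (9 and 36 UMIs) and Ptpn11 (5 and 25 UMIs), with intervals that include 0. Of 17 other killer-receptor genes, 8 passed and 2 were past 2-fold higher, Klra1 (5 and 25 UMIs, log2 1.36, -0.05 to 3.10) and Klrg1 (1 and 20 UMIs, log2 3.36, 0.71 to 8.73). The other 6 were below 0 and the median of the 8 was -0.20, and Klrb1f (39 and 44 UMIs, 210.2 and 121.7 CPM) had a log2 of -0.79 (-1.44 to -0.13). None of 7 effector genes was past 2-fold. Gzma was at 2469 and 3642 CPM, with a log2 ratio of 0.56 (0.41 to 0.72), and Ifng at 194 and 102 CPM, -0.92 (-1.63 to -0.22). Of the ligands, H2-T23, which encodes Qa-1, was at 752 and 896 CPM in pDC-like cells and 21.4 and 38.2 CPM in melanoma-like cells. The NKG2D ligand genes Raet1d, Raet1e, H60b and Ulbp1 were each under 10 CPM in melanoma-like cells, and H60c, also on the list, is not described here. These melanoma-like cells had passed the CD45+ sort and may not stand for the tumour cells at large.

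Over 34 points (17 named classes in 2 libraries), the genes whose log2(CPM + 1) followed the members' sum most closely were Cd7 (Pearson's r = 0.85), Slc14a1 (0.83), B4galnt1 (0.82), Adgrg5 (0.81) and Runx3 (0.80). The points share libraries and differ in depth. Runx3 encodes a transcription factor of NK and CD8 T cells that binds the core TGTGGT. In RefSeq promoters of GRCm38.p6 (250 bases before to 50 after a start), which hold 9 of the 10 members and not Klrd1, that core occurred on either strand in 8 of 14 member starts (57.1%), against 16.8% of 32851 starts of all genes. The 8 starts belong to 6 of the 9 genes, and the share of all genes with the core is not given here. Starts of 1 gene can overlap, so the 14 are not independent. Binding of Runx3 at these sites and control of the genes by it were not tested. The T-box half-site TCACAC was in 4 of 14, against 14.5% of all. The first match of each of the 6 genes with the core is shown along the gene's strand, with the core in capitals (ACCACA where it lies on the other strand).
Klrb1c (chr6:128788716-128788739, minus strand): aaggaaagcTGTGGTcatggtgtt
Klrc1 (chr6:129679046-129679069, minus strand): gttgttgttACCACAgcactcgta
Klrc2 (chr6:129660618-129660641, minus strand): aatagaatcACCACAgcatagaac
Klre1 (chr6:129577975-129577998, plus strand): tgtttaagcTGTGGTtccagagag
Klrk1 (chr6:129623979-129624002, minus strand): tagctgtgcTGTGGTtgtgtgggg
Ncr1 (chr7:4337530-4337553, plus strand): gatccaaaaTGTGGTtaaatgtgt
The promoters of Klra4, Klra7 and Klra8 did not hold the core in this window.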

How the data were processed

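Live CD45+ cells of B16 tumours went into 1 droplet library per genotype (10x Genomics, 3' v3). Reads were aligned with Cell Ranger (mm10 per the submitters' processing notes, version 4.0.0 per the file headers), and the authors deposited whole-number UMI counts of 31053 genes in 14341 barcodes, not normalised. Cells with at least 200 genes and at most 10% mitochondrial UMIs were kept, as in the study's methods. Scrublet's automatic threshold marked 1 cell per library, and cells were instead dropped from the top of its score at 0.8% per 1000 cells (256 and 532). Clusters came from scanpy 1.11.5 (2000 variable genes, 30 components, 20 neighbours, leidenalg 0.10.2, resolution 1), and T and NK clusters were divided again. Names came from marker lists and, outside T and NK clusters, needed at least 3 markers at 50 CPM and 2-fold over the median cluster. NK-like clusters had high NK markers and Cd3 genes under 20% of the highest cluster, Treg-like ones Foxp3 in at least 25% of cells, and gamma-delta T-like was the cluster with the highest gamma-delta markers. CD8 or CD4 T-like clusters had those genes at 40% or more of the highest cluster and 3-fold above the other's relative level. Rebuilt clusters may differ from the study's. CPM, shares, exact intervals and log2 ratios were computed here from the deposited counts. With 1 library per genotype no test was run. A gene counted as called when past 2-fold with a pseudocount of 1 CPM and at least 20 UMIs over both libraries. Named genes were the 10 members, fixed lists and the 5 genes most like the members' sum (at least 100 UMIs). The members and lists were chosen with earlier results of these data known. The intervals and thinning were tested on simulated data. The simulated counts held no spread between cells beyond counting error, so that test does not cover UMIs gathered in few cells. Alternatives were doublets kept, a stricter cell filter, resolution 2, single-cell gates, thinning, per-cell means, members in the clustering, centred ratios and a floor of 5 UMIs.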

Additional observations from a re-analysis of the deposited data

Results flagged for a closer look

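Barcodes that the filters and the removal of doublets left out also held UMIs of the 10 receptor genes. In the library labelled WT there were 693 of them in 490 barcodes (169.7 CPM, 157 to 183), and in the library labelled KO 1248 in 821 barcodes (184 CPM, 174 to 195). They were singled out because they lie outside the comparisons above and exceed the limit that a count of 0 allows.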

How the results depend on the processing

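Of 259 values recomputed under 9 alternatives, 227 stayed within their counting error (or within 1.5 times, for counts), 31 moved and 1 whose interval left out 0 reversed. Of the 179 log2 KO/WT values among them, 31 had the other sign (16 in NK-like, 8 in CD8 T-like and 7 in CD4 T-like cells), and all but that 1 belonged to ratios whose interval included 0. The cause of these moves was not tested. In CD4 T-like cells the 1 member past 2-fold higher became 0 with doublets kept, with the stricter cell filter, at resolution 2, with single-cell gates, after thinning and with members in the clustering. This was Klrc1, which then had fewer than the 20 UMIs of the floor, so these counts do not bear on its fold. The 0 past 2-fold lower became 1 with per-cell means and with a floor of 5 UMIs. The log2 KO/WT of the members' sum there, -0.23, became 0.47 with the stricter filter, 0.65 with gates and 0.38 with members in the clustering. In CD8 T-like cells the 2 past 2-fold higher became 1 with the stricter filter, at resolution 2 and with per-cell means, 0 with gates and after thinning, and 4 with a floor of 5 UMIs. Klrb1c was under the floor with the stricter filter, gates and thinning, and Klra7 after thinning (1 and 11 UMIs). The sum's log2 of 0.09 there became 0.43 after thinning and 0.32 with per-cell means. With the pseudocount, Klrc2 went from -0.48 to 0.040 and Klrd1 from -0.022 to 0.56 after thinning. In NK-like cells the sum's log2 of 0.0069 became 0.13 with gates. The log2 of NK-like over CD8 T-like cells, 2.48 labelled WT and 2.40 labelled KO, became 2.27 and 1.99 with per-cell means, and 1.97 labelled KO after thinning. NK-like cells with a Ly49 member, 63.5% labelled KO, became 53.8% after thinning. No paired analysis was possible because each genotype had 1 library.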

Other observations

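Relatives of the members had levels in other classes that the text above does not describe. Klra2, a Ly49 family gene, had no UMI in NK-like cells and was at 133 CPM in monocyte-like cells labelled WT and 140.4 CPM in those labelled KO, and at 41.2 and 40.4 CPM in macrophage-like cells. Klra17 was at 121.5 and 116 CPM in pDC-like cells and had no UMI in NK-like cells. Klrb1b, which encodes an inhibitory receptor for the product of Clec2d, was at 183 and 166 CPM in NK-like cells and 138 and 111 CPM in cDC2-like cells. Klri2, whose product pairs with that of Klre1, was at 237 and 185 CPM in NK-like cells. Of the 8 NK maturation genes, 5 had at least 20 UMIs in NK-like cells, 2 above 0 and 3 below, with a median log2 of -0.15. Itga1 was past 2-fold higher (4.8% of all genes were) with 3 and 28 UMIs, at 16.2 and 77.4 CPM and a log2 ratio of 2.26 (0.56 to 4.62). These values come from 1 library per genotype.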
